A study of Mus musculus with 40 samples.

Results

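The cytoplasmic ribosomal protein genes are described here across 40 RNA-seq libraries of mouse forebrain. Members were protein-coding genes whose mouse symbol has the form Rpl or Rps followed by a number, with suffixes such as a, l and x, or Rplp with a number or Rpsa, and that reached at least 10 counts in at least 5 libraries. This rule gave 81 of the 41388 genes in the count tables, 49 of the large and 32 of the small ribosomal subunit. Of 88 genes with such a symbol, 83 were protein-coding. The protein-coding Rpl10l had 0 counts in all libraries and Rpl39l reached 10 counts in 1 library, so that neither is a member. The other 5 genes with such a symbol are annotated as pseudogenes, and of these Rps4l had at least 10 counts in all 40 libraries.

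The study compared ribosome-bound RNA of the whole homogenate and of a fraction rich in synapses for 2 kinds of neuron, in mice of both sexes at 21 days after birth. All mice carried a reporter allele at the Rosa26 locus from which Cre recombinase turns on the ribosomal protein Rpl10a fused to the green fluorescent protein EGFP. In the RBP4 line Cre came from the transgene Tg(RBP4-cre)KL100Gsat/Mmcd, which targets pyramidal neurons of cortical layer 5, and in the VGAT line from the vesicular GABA transporter locus Slc32a1, which targets GABAergic inhibitory neurons. From each of 5 pools of forebrains per line, 4 fractions were taken in parallel, each with 1 library per pool. WCH is RNA of the whole homogenate. TRAP (translating ribosome affinity purification) is the RNA captured with the tagged ribosomes from it. SNF is RNA of a synaptoneurosome fraction from a density gradient, which is rich in pinched-off synapses and also holds RNA of glial markers, as given below. ST (SynapTRAP) is the capture of tagged ribosomes from SNF. The 8 groups were therefore RBP4 and VGAT in WCH, TRAP, SNF and ST, with 5 libraries each. The labels give cortex as the tissue, while the dissection was of forebrain.

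Ribosomal proteins assemble with ribosomal RNA into a small subunit, which decodes the mRNA, and a large subunit, which joins amino acids. Each ribosome holds most of these proteins as a single copy. Their mRNAs are among the best known carriers of a 5´ terminal oligopyrimidine tract (TOP), an unbroken run of C and U at the first transcribed bases through which the mTOR pathway and the RNA-binding protein Larp1 control their translation. In neurons, mRNAs of ribosomal proteins are known to be present in axons and dendrites, away from the nucleolus where ribosomes are assembled.

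The windows around the annotated start of the gene are shown first for 8 members described below, chosen after their values were seen to show windows with and without the run, because the TOP is the sequence this family is known for. Each is the plus-sense sequence 5´ to 3´, with 12 bases before and 16 bases from the annotated first base, from RefSeq on GRCm38.p6. Capitals mark an unbroken run of at least 5 pyrimidines (C or T, in the direction of the gene) that covers the annotated first base.
Rplp0: ttcgggtttcgaggaccgcctggttctc
Rpsa: ggttatttaaggacgtcatttccggccg
Rps2: cagtcgagatctcgcgcttcttggagca
Rps9: gccttgTCTCTCTTTgtctcgggcctga
Rpl28: cctctcgtgTCTCTCTTTCCgtctccgg
Rplp2: gtcagcgTCTTCCTTTCgccgccggacg
Rpl15: ggagaaagCCTTCTTCCTTTCCTCTggc
Rpl7l1: aggctgcgcaagcgcagtagctgaagca
The first 3 lie at chr5:115559455-115559482, chr9:120127754-120127781 and chr17:24720051-24720078, and the next 3 at chr7:3704029-3704056, chr7:4792953-4792980 and chr7:141447639-141447666, all on the plus strand. Rpl15 at chr14:18270971-18270998 and Rpl7l1 at chr17:46782641-46782668 are on the minus strand. Of the 81 members, 61 were in the RefSeq table, and 20 of these (32.8%) had such a run, against 11.8% of all 27025 genes of the table. With a run of at least 7 pyrimidines the shares were 31.1% and 6.22%. A run that is missing at the annotated base says only that these letters are not at that position.

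Member levels covered a wide range. Over the 40 libraries the mean level of a member was between 0.30002 and 687 cpm (a gene's counts scaled to a common library size), with a median of 35.6, and 55 members had a mean of at least 10 cpm. Together members took 0.614% of the counts, and in single libraries between 0.415% and 0.992%. Rpl4 alone made up 11.1% of the member counts, and with Rps3, Rps14 and Rpl8 31.9%, so that sums over members follow few genes. Per length of the counted gene, as RPKM (cpm divided by the counted length in kilobases), the highest medians over all libraries were those of Rpl32 (545) and Rpl4 (458). The lowest were those of Rpl3l (0.161), Rps6 (0.464) and Rpl23a (0.526). Rps6, the substrate of the S6 kinases, and Rpl23a are parts of the standard small and large subunit. Only uniquely aligned reads were counted. For 56 members the tables hold 248 features named as their pseudogenes, whose counts equal 0.488% of those of the 55 members of at least 10 cpm but 35.8% of those of the 26 members below it. What share of a member's reads was lost to such copies was not tested, and levels of the low members are uncertain.

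Related genes that both encode a form of the same protein differed in their level per length. The muscle form Rpl3l had a median of 0.161 RPKM against 14.5 for Rpl3. For Rpl7l1, a relative of Rpl7 that is known from ribosome assembly, it was 32.9 against 45.2. Rpl22l1, the paralog of Rpl22, had 63.8 against 33.0, and Rps27l 25.5 against 2.04 for Rps27. In both of the last pairs the paralog had the higher level per length, with the same uncertainty from copies. In cpm, which is not per length, Rpl22 had the higher mean over the 40 libraries, 93.3 against 35.6 for Rpl22l1.

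Facts of the libraries that touch these values are few. The libraries held 14260000 to 22038000 counts and 8950800 to 21977000 once genes of the mitochondrial genome and those for rRNA and tRNA were removed, so that 1 count was worth 0.0455 to 0.112 cpm. Mitochondrial genes took 0.0584 to 41.9% of the counts, most in SNF of replicate 3 of either line (40.2 and 41.9%). Of the markers, Slc32a1, the transporter that defines GABAergic neurons, was at 48.4 to 77.2 cpm in VGAT TRAP and at 1.49 to 4.99 in RBP4 TRAP. In the library labelled RBP4 ST replicate 4 it was at 49.9 cpm. The remaining 4 libraries of that group had 10.9 to 19.7 cpm and those of VGAT ST 23.3 to 51.3. In SNF, the input of these captures, Slc32a1 was at 24.1 to 44.2 cpm in RBP4, with 37.8 in replicate 4, and at 19.9 to 35.7 in VGAT. By this marker alone the library labelled RBP4 ST replicate 4 lies in the range of VGAT ST, and whether its label holds was not tested. Its sum over the GABAergic markers, 490 cpm, was below those of all VGAT ST libraries (748 to 2688). Its sum over the layer 5 and glutamatergic markers, 1032.5 cpm, was above those of all VGAT ST libraries (542 to 850). Results that rest on RBP4 ST are given with and without this library where they differ. The layer 5 and glutamatergic markers (4 genes) were higher in RBP4 TRAP than in WCH for 3, and all 5 GABAergic markers were higher in VGAT TRAP than in WCH. In such mixed tissue, a smaller part of cells of a type and less RNA per cell cannot be told apart.

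Summed over all members, the level in the VGAT line was higher in captured RNA than in its input in every pool. The sums for replicates 1 to 5 were 6292, 4828, 4738, 5149 and 4962 cpm in VGAT WCH and 6696, 6073, 7523, 7193 and 7215 cpm in VGAT TRAP. In VGAT SNF they were 5014, 4587, 8002, 5639 and 5282 cpm, and in VGAT ST 7061, 7595, 9922, 8208 and 7880 cpm. Within each of the 5 pools TRAP had a higher sum than WCH, ST than SNF and ST than TRAP, by ratios of 1.06 to 1.59, 1.24 to 1.66 and 1.05 to 1.32.

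The RBP4 sums did not order the fractions. They were 7196, 4152, 4684, 5879 and 4755 cpm in RBP4 WCH, 5386, 5954, 6652, 5046 and 5533 in TRAP, 5712, 5028, 7349, 5562 and 6353 in SNF and 7904, 4303, 6253, 7021 and 7701 in ST. All 4 groups overlap, and each of these ratios was above 1 in 3 of 5 pools. The sum of replicate 3 was the highest of the group in TRAP and SNF of both lines and in VGAT ST, and this is the pool with the largest mitochondrial share in those groups. RBP4 ST replicate 3 also has the largest share of its group and is not the highest sum, and VGAT WCH replicate 3 has the largest share, 6.67% against at most 5.21%, and the lowest sum of its group. The part of that share in the sums was not tested. As sums over members chosen with results in view they were not tested further.

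By its mean, the ratio of large to small subunit sums was lowest in SNF in both lines. The sum over large subunit genes was 1.401 ± 0.032 times that over small subunit genes in VGAT WCH (SD, n = 5), 1.39 ± 0.045 in VGAT TRAP, 1.254 ± 0.027 in VGAT SNF and 1.256 ± 0.068 in VGAT ST. The VGAT SNF libraries, at 1.21 to 1.28, lay below all WCH libraries at 1.38 to 1.46. In the RBP4 line the ratio was 1.32 ± 0.093 in WCH, 1.35 ± 0.049 in TRAP, 1.22 ± 0.038 in SNF and 1.28 ± 0.081 in ST, and SNF at 1.17 to 1.27 lay below all TRAP libraries at 1.29 to 1.42 but overlapped with WCH. This ratio does not depend on the scaling of the libraries.

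**Figure D1:**
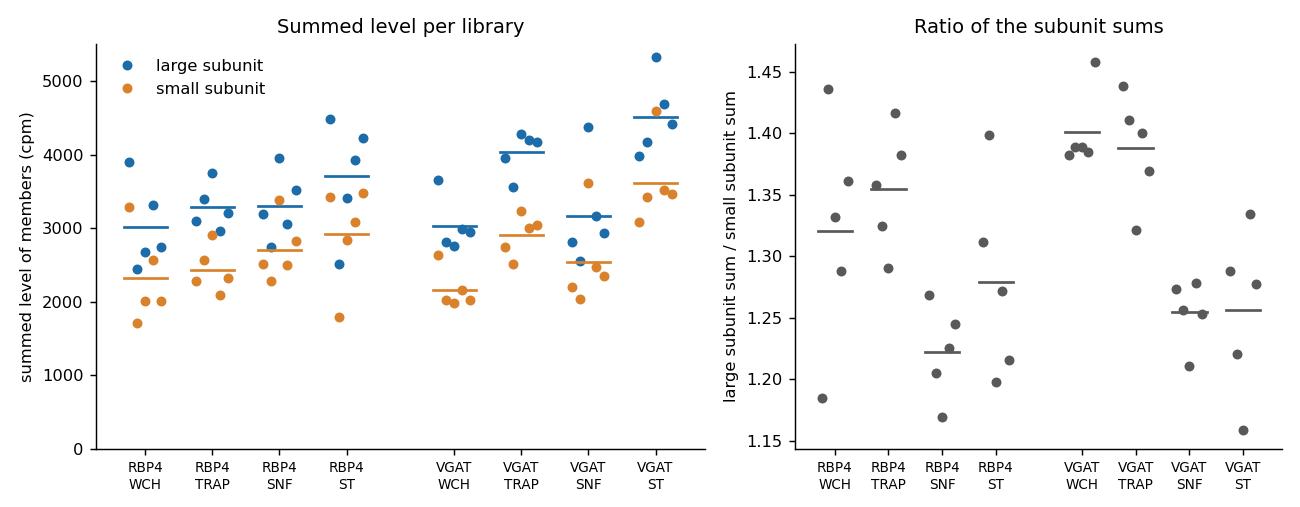
Left, summed level in cpm (y axis, from 0) of the 49 large and 32 small subunit genes in each of the 40 libraries, by line and fraction; right, the ratio of the large to the small subunit sum (y axis, which does not start at 0). Points are libraries and lines the mean of 5; the RBP4 groups overlap in the sums, and the ratio in VGAT SNF, at 1.21 to 1.28, lies below VGAT WCH, at 1.38 to 1.46.

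In captured RNA of VGAT neurons most ribosomal protein genes were higher than in the homogenate. In VGAT TRAP against WCH 50 of 81 members were higher and 4 lower with adjusted p not above 0.05 (edgeR quasi-likelihood test, Benjamini-Hochberg over all genes tested), where 21.0% of the 16990 genes tested were higher and 41.8% lower. The median log2 fold change was 0.50 over members and -0.31 over all genes. Large subunit genes were higher for 33 of 49 and small subunit genes for 17 of 32, and the 4 lower genes were Rplp0, Rpl5, Rpl9 and Rpl10. For 37 of 81 members all TRAP libraries lay above all WCH libraries, as for 16.9% of all genes. With TMM factors, which moved the median of all genes by 0.25, 65 members were higher and 3 lower. The medians were then 0.75 over members and -0.06 over all genes. Shares of all genes, here and below, are without TMM and are no baseline for member counts with TMM or another setting.

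The same comparison in RBP4 called few members. In RBP4 TRAP against WCH 7 of 80 tested members were higher, against 8.37% of all 17043 genes, and 2 were lower, against 31.5%. The share of higher members was thus close to that of all genes. The median was 0.14 over members and -0.34 over all genes. TMM moved the median of all genes by 0.29 and then 25 members were higher and 2 lower. Without pools 2, 3 and 4 the higher members were 3, 3 and 4, and with the pool as a block, or without pool 5, 4 were lower. All 7 higher members (Rpl18, Rpl19, Rpl27a, Rpl29, Rpl31, Rpl7l1 and Rplp2) are of the large subunit and were also higher in the VGAT line, with which the RBP4 line shares no library, and both lower members (Rpl5 and Rpl9) were lower there too. In the test of the difference itself, TRAP less WCH in RBP4 against VGAT, 0 members were higher and 0 lower with edgeR, and 0 with TMM and with DESeq2, where 5.63% of all genes were higher and 6.97% lower. At an unadjusted p under 0.05 there were 0 higher members, against 10.6% of all genes, and 9 lower, against 12.5%, and the median was -0.36 over members and -0.05 over all genes.

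Rpl29, a basic protein at the surface of the large subunit, was the member with the smallest p for higher TRAP in both lines. It lies at chr9:106429454-106431568 on the plus strand. Its level was 12.9, 9.52, 11.4, 14.7 and 15.0 cpm in RBP4 WCH and 24.1, 27.9, 33.0, 30.5 and 23.2 cpm in RBP4 TRAP. In VGAT WCH it was 14.2, 13.9, 12.9, 14.6 and 12.8 cpm and in VGAT TRAP 29.6, 27.2, 29.2, 34.1 and 24.7 cpm. All TRAP libraries lay above all WCH libraries. The log2 fold change was 1.13 ± 0.18 (SE, edgeR adjusted p = 4.44e-05) in RBP4 and 1.08 ± 0.16 (edgeR adjusted p = 5.17e-06) in VGAT.

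Rpl5 and Rpl9 were lower in captured RNA. Rpl5, which carries the 5S rRNA to the ribosome, was at 5.53, 20.5, 21.6, 3.47 and 14.1 cpm in RBP4 WCH and at 4.47, 1.58, 3.17, 1.55 and 5.10 cpm in RBP4 TRAP. In VGAT WCH it was at 3.33, 7.65, 20.2, 14.5 and 15.4 cpm and in VGAT TRAP at 0.893, 0.594, 4.02, 1.85 and 2.24 cpm. Levels in WCH spread widely and overlap with TRAP in both lines, yet TRAP was lower than WCH in 5 of 5 pools of each. The log2 fold change was -2.04 ± 0.48 (edgeR adjusted p = 0.00200) in RBP4 and -2.67 ± 0.57 (edgeR adjusted p = 4.18e-04) in VGAT. Rpl9, a protein near the base of the stalk, had a log2 fold change of -1.49 ± 0.36 in RBP4 (edgeR adjusted p = 0.00220) and by -0.99 ± 0.29 in VGAT (edgeR adjusted p = 0.00560), from levels of 5.15 ± 1.0 and 3.80 ± 0.82 cpm in WCH (SD, n = 5). Both are members under 10 cpm. Rpl10, the late-joining protein of the large subunit, fell by 0.94 ± 0.30 on the log2 scale in VGAT (edgeR adjusted p = 0.00879), and Rpl8, a core protein of the large subunit, rose by 0.70 ± 0.14 (edgeR adjusted p = 1.49e-04).

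**Figure D2:**
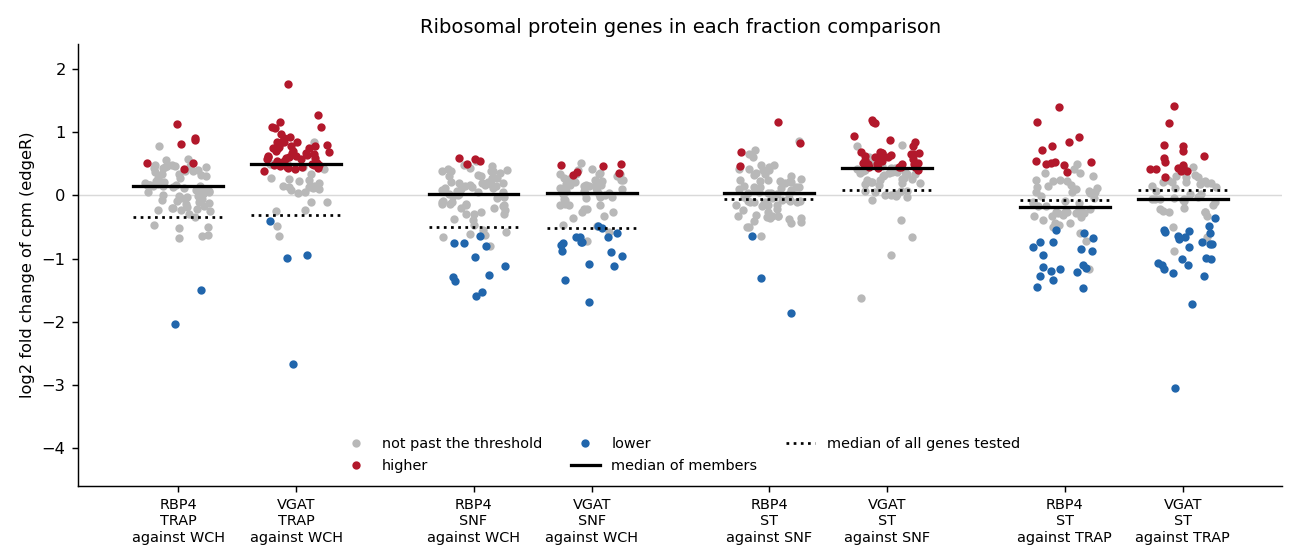
Log2 fold changes of the members in the 4 comparisons within each line (y axis); points are members, red or blue where higher or lower at an edgeR adjusted p of at most 0.05 and grey otherwise, with a solid line at the median of members and a dotted one at that of all genes tested. In VGAT TRAP against WCH the members have a median of 0.50 where all genes have -0.31, and in ST against TRAP called members lie on both sides in both lines.

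Rpl10a, the protein that is tagged in the reporter, passed no test for captured against homogenate RNA. Its log2 fold change in TRAP against WCH was -0.50 ± 0.28 in RBP4 (edgeR adjusted p = 0.154) and -0.65 ± 0.43 in VGAT (edgeR adjusted p = 0.195). Its levels were 4.65, 4.29, 4.68, 3.14 and 4.20 cpm in RBP4 WCH, 4.05, 2.57, 2.13, 3.003 and 3.08 in RBP4 TRAP, and 1.23, 1.21, 1.27, 0.976 and 2.53 in RBP4 SNF. RBP4 SNF thus lay below all WCH libraries, with a log2 fold change of -1.54 ± 0.29 (edgeR adjusted p = 3.46e-04), and in VGAT SNF against WCH it was -1.34 ± 0.46 (edgeR adjusted p = 0.0139). RBP4 ST was lower than TRAP by a log2 fold change of -1.19 ± 0.29 (edgeR adjusted p = 0.00125), while it was -0.20 ± 0.45 in VGAT (edgeR adjusted p = 0.696), and the difference of these 2 changes, -0.99 ± 0.53, had an edgeR adjusted p of 0.264. Whether reads of the transgene were counted under Rpl10a was not tested.

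Between synaptoneurosomes and homogenate few members were higher by this scaling, and those that were lower were mostly low in level. In RBP4 SNF against WCH 4 of 80 members were higher and 11 lower, against 13.4% and 36.1% of all genes. In VGAT SNF against WCH 6 of 81 were higher and 17 lower, against 19.3% and 45.2%. Medians over members were 0.02 and 0.04 where those over all genes were -0.50 and -0.52. Which direction holds most members depends on the scaling: with TMM, which moved the median of all genes by 0.33 and 0.35, 21 members were higher and 4 lower in RBP4 and 33 higher and 4 lower in VGAT. With no genes left out, 0 were higher in either line and 20 and 32 were lower. Without pools 2, 3, 4 and 5 there were 1, 0, 1 and 1 higher members in RBP4, and without pool 1 there were 7 lower. For VGAT, 10, 0, 1 and 2 were higher without pools 1, 3, 4 and 5, and 10 lower without pool 1 or pool 4. Of the lower members 9 of 11 in RBP4 and 13 of 17 in VGAT were under 10 cpm. The 11 lower members of RBP4 were all lower in VGAT too, and the higher ones shared by both lines were the stalk proteins Rplp0 and Rplp1 and Rps15, a small subunit protein near the decoding site.

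Rpl7l1 and Rpl15 were lower in SNF in both lines. Rpl7l1 was at 98.4 ± 7.6 cpm in RBP4 WCH and at 62.8 ± 9.1 in RBP4 SNF (SD, n = 5), a log2 fold change of -0.65 ± 0.15 (edgeR adjusted p = 0.00130), and fell by 0.78 ± 0.14 in VGAT (edgeR adjusted p = 5.39e-05). Rpl15, a core protein of the large subunit, fell by 0.76 ± 0.21 in RBP4 (edgeR adjusted p = 0.00491) and by 0.65 ± 0.12 in VGAT (edgeR adjusted p = 7.61e-05). Rplp1 rose by 0.60 ± 0.23 in RBP4 (edgeR adjusted p = 0.0324) and 0.47 ± 0.17 in VGAT (edgeR adjusted p = 0.0168).

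Captured over input RNA of the synaptoneurosome fraction was again higher for many members in the VGAT line. In VGAT ST against SNF 35 of 81 members were higher and 0 lower at the adjusted threshold in edgeR, 1 with TMM and 1 with DESeq2, where 16.3% of all genes were higher and 11.2% lower. The higher members were 18 of 49 large and 17 of 32 small subunit genes, and ST was higher in 5 of 5 pools for 49 members. At an unadjusted p under 0.05 there were 2 lower members, against 15.4% of all genes. The median was 0.44 over members and 0.08 over all genes. With TMM 21 were higher, and without pool 2 of the VGAT line 21 were. For 5 of 81 members all ST libraries lay above all SNF libraries, as for 8.99% of all genes. For RBP4 4 of 80 were higher, against 5.64% of all genes, and 3 lower, against 5.46%, shares near those of all genes. Without the library labelled RBP4 ST replicate 4 there were 2 higher and 0 lower. With the pool as a block 8 were higher, and leaving out pools 1, 3, 4 and 5 gave 0, 2, 0 and 1 higher, while leaving out pool 1, 2, 4 or 5 gave 1 lower. The 4 higher members of RBP4 (Rpl13, Rpl14, Rpl15 and Rpsa) were also higher in VGAT.

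Rpsa, a small subunit protein also known as the laminin receptor, had the smallest p in VGAT ST against SNF. It rose by 1.202 ± 0.16 on the log2 scale (edgeR adjusted p = 4.43e-06). In the RBP4 line the change was 0.84 ± 0.26 (edgeR adjusted p = 0.0384), and this call was lost without the library labelled RBP4 ST replicate 4, without pool 1, 4 or 5, and with no filter. Rps2, a small subunit protein at the mRNA entry, rose by 1.16 ± 0.19 in VGAT (edgeR adjusted p = 8.12e-05) and had a log2 fold change of 0.86 ± 0.29 in RBP4 (edgeR adjusted p = 0.0535). Blocked by pool it passed in RBP4, at 0.83 (edgeR adjusted p = 0.0278). The lower members of RBP4, Rpl5 at -1.86 ± 0.50 (edgeR adjusted p = 0.0186), Rps29 at -1.32 ± 0.38 (edgeR adjusted p = 0.0268) and Rpl28 at -0.65 ± 0.20 (edgeR adjusted p = 0.0347), all lost the call without that library.

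Between captured RNA of the synaptoneurosome fraction and that of the whole homogenate, members divided. In RBP4 ST against TRAP 13 of 80 members were higher, against 26.0% of all genes, and 19 lower, against 29.1%. In VGAT ST against TRAP 16 of 81 were higher and 24 lower, against 37.5% and 34.0%. Medians were -0.19 and -0.05 over members and -0.07 and 0.08 over all genes. Members that moved were mostly the same in both lines, which share no library. Higher in both were 11, 84.6% of those of RBP4 and 68.8% of those of VGAT. Lower in both were 15, 78.9% and 62.5%, and 0 were higher in one line and lower in the other. The overlap of all genes is not given. Whether members overlap more than other genes was not tested, here or in the other comparisons. In the test of the line difference of ST less TRAP 0 members were higher and 0 lower with edgeR, with TMM and with DESeq2, where 5.02% and 5.79% of all genes were, and at an unadjusted p under 0.05 0 members were higher, against 10.1% of all genes, and 1 lower, against 13.7%. All ST libraries lay above all TRAP libraries for 3 of 80 members in RBP4 and below them for 9, against 13.6% and 19.4% of all genes, and for 12 and 10 of 81 in VGAT, against 24.3% and 26.9%. Without the library labelled RBP4 ST replicate 4, 8 members were higher in RBP4. Leaving out pools 1, 4 and 5 gave 6, 5 and 6 higher, and leaving out pools 2 and 4 gave 11 and 12 lower.

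The shared lists have names that are given here after their values were seen. Among those higher in ST of both lines were the large subunit genes Rpl4, Rpl13a and Rplp0 and the small subunit genes Rps2, Rps3, Rps4x, Rps9, Rps19 and Rpsa. Lower in both were 11 large subunit genes (Rpl7l1, Rpl11, Rpl15, Rpl19, Rpl21, Rpl22l1, Rpl23, Rpl27a, Rpl28, Rpl36a and Rplp2) and 4 of the small subunit (Rps12, Rps13, Rps27a and Rps29). With the pool as a block the VGAT call of Rps13 was lost, at -0.78 (edgeR adjusted p = 0.0541). Of the higher genes 10 of 11, and of the lower 7 of 15, had a mean of at least 10 cpm. By subunit, ST was higher for 6 large and 7 small subunit genes in RBP4 and for 6 and 10 in VGAT, and lower for 14 and 5 in RBP4 and 16 and 8 in VGAT.

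**Figure D3:**
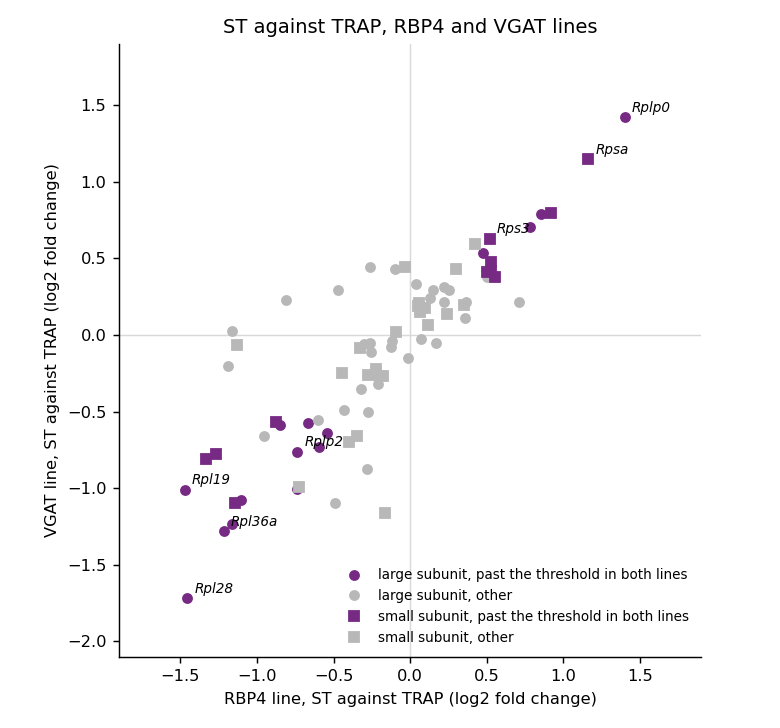
Log2 fold change of ST against TRAP in the RBP4 line (x axis) and in the VGAT line (y axis) for the 80 members tested in both; circles are large and squares small subunit genes, purple where past the threshold in both lines. Rplp0 is at the upper right with 1.399 and 1.42, Rpl28 at the lower left with -1.46 and -1.72, and no point called in both lines has opposite signs in them.

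Rplp0, the anchor of the ribosomal stalk to which Rplp1 and Rplp2 bind, had the smallest p among higher members in both lines. It lies at chr5:115559467-115563727 on the plus strand. Its level was 97.7, 98.2, 127, 79.4 and 162 cpm in RBP4 TRAP and 434, 178, 259, 360 and 260 cpm in RBP4 ST. In VGAT TRAP it was 109, 97.4, 131, 118 and 135 cpm and in VGAT ST 288, 333, 309, 339 and 316 cpm. ST lay above TRAP in every library of both lines. The log2 fold change was 1.399 ± 0.23 in RBP4 (edgeR adjusted p = 1.96e-05) and 1.42 ± 0.13 in VGAT (edgeR adjusted p = 2.81e-09). Its partners had other values. Rplp2 was at 94.6, 162, 175, 106 and 142 cpm in RBP4 TRAP and 122, 57.8, 71.5, 93.0 and 63.0 in RBP4 ST, and at 163, 113, 192, 213 and 172 cpm in VGAT TRAP and 77.5, 93.3, 121, 85.7 and 126 in VGAT ST. The groups overlap, and the log2 fold change was -0.74 ± 0.22 (edgeR adjusted p = 0.00598) and -0.76 ± 0.17 (edgeR adjusted p = 3.91e-04). Without pool 2 or pool 3 the RBP4 call for Rplp2 was lost. Rplp1 had a log2 fold change of 0.50 ± 0.23 in RBP4 (edgeR adjusted p = 0.0638) and rose by 0.38 ± 0.16 in VGAT (edgeR adjusted p = 0.0435). In TRAP against WCH the order was turned: Rplp2 rose by 0.88 ± 0.22 and 0.84 ± 0.17 (edgeR adjusted p = 0.00287 and 2.16e-04), while Rplp0 had a log2 fold change of -0.51 ± 0.22 in RBP4 (edgeR adjusted p = 0.0685) and fell by 0.40 ± 0.13 in VGAT (edgeR adjusted p = 0.00830). With the pool as a block Rplp0 passed in RBP4 too, at -0.50 (edgeR adjusted p = 0.0371). The VGAT call was lost with TMM, with DESeq2 and with all 40 libraries.

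Rpsa and Rpl28 showed the same contrast at lower levels. Rpsa, at chr9:120127766-120132369 on the plus strand, was at 4.29, 5.20, 5.35, 3.09 and 3.47 cpm in RBP4 TRAP and at 12.02, 5.55, 9.63, 12.2 and 8.58 cpm in RBP4 ST. In VGAT TRAP it was at 6.12, 4.46, 7.01, 5.34 and 6.03 cpm and in VGAT ST at 13.1, 14.1, 13.8, 10.6 and 12.5 cpm. ST lay above TRAP in all libraries, by a log2 fold change of 1.16 ± 0.26 (edgeR adjusted p = 6.06e-04) and 1.15 ± 0.15 (edgeR adjusted p = 8.65e-07). Rpl28, a large subunit protein at chr7:4792874-4794562 on the plus strand, was at 24.3, 31.7, 33.0, 27.2 and 36.1 cpm in RBP4 TRAP and at 14.6, 10.5, 9.76, 8.66 and 11.97 cpm in RBP4 ST. In VGAT TRAP it was at 44.1, 34.5, 37.5, 42.3 and 38.5 cpm and in VGAT ST at 9.58, 8.95, 13.2, 11.7 and 16.5 cpm. Here ST lay below TRAP in all libraries, by -1.46 ± 0.20 (edgeR adjusted p = 2.79e-06) and -1.72 ± 0.16 (edgeR adjusted p = 3.81e-09). Rpl7l1, at chr17:46773907-46782656 on the minus strand, fell by 1.16 ± 0.15 and 1.24 ± 0.14 (edgeR adjusted p = 1.34e-06 and 9.23e-08). Its relative Rpl7 had a log2 fold change of 0.25 ± 0.19 in RBP4 (edgeR adjusted p = 0.269) and rose by 0.30 ± 0.12 in VGAT (edgeR adjusted p = 0.0367).

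**Figure D4:**
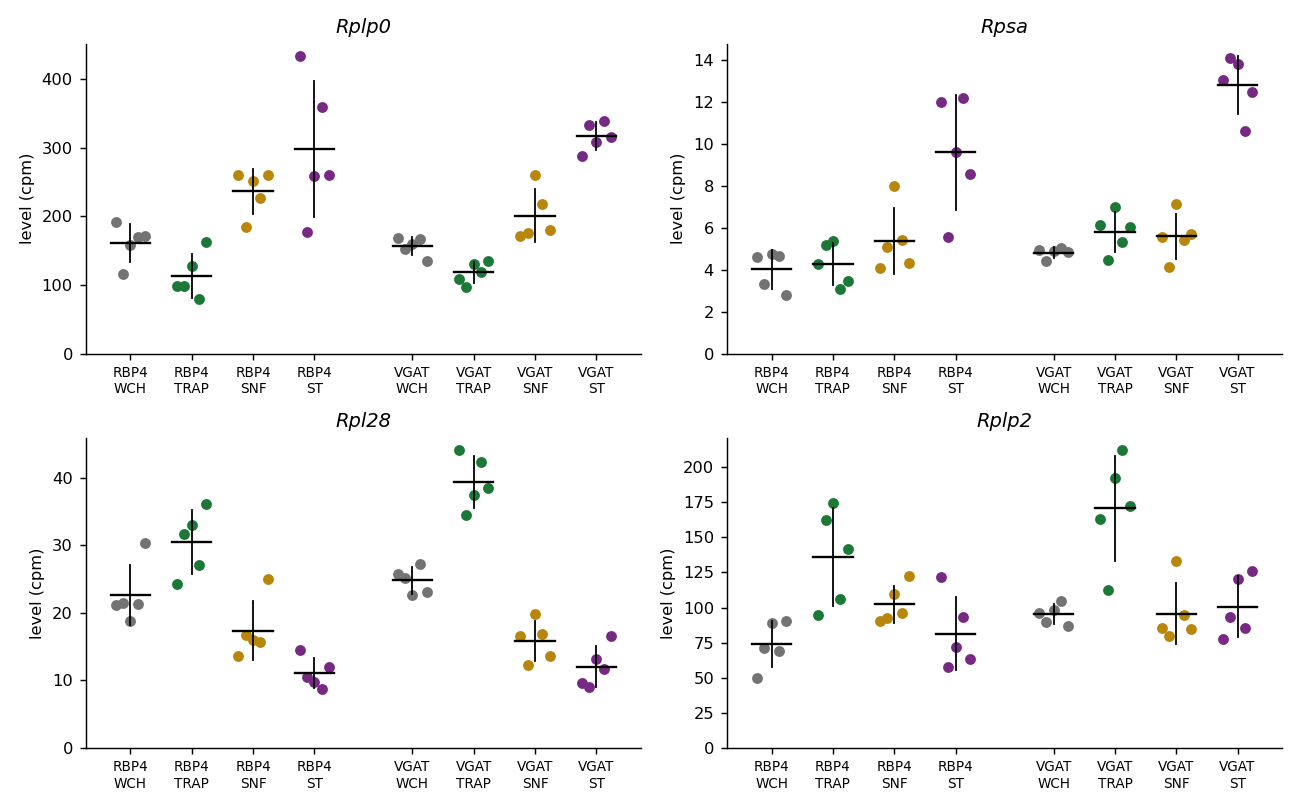
Level of Rplp0, Rplp2, Rpsa and Rpl28 (y axis, cpm) in each of the 40 libraries, by line and fraction; points are libraries and lines the mean and SD of 5. Rplp0 and Rpsa have their highest mean in ST of both lines and Rpl28 its lowest, with 8.66 to 14.6 cpm in RBP4 and 8.95 to 16.5 cpm in VGAT.

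Other members named for their role follow. Rps27a, which is made as a fusion with ubiquitin, fell by 0.88 ± 0.30 in RBP4 ST against TRAP (edgeR adjusted p = 0.0153) and by 0.57 ± 0.20 in VGAT (edgeR adjusted p = 0.0158). Rpl22l1 was lower, with log2 fold changes of -0.74 ± 0.23 (edgeR adjusted p = 0.0105) and -1.0025 ± 0.20 (edgeR adjusted p = 1.55e-04), while Rpl22 had a log2 fold change of 0.07 ± 0.18 and -0.03 ± 0.14 (edgeR adjusted p = 0.762 and 0.863). Rps6 fell by 1.13 ± 0.45 in RBP4 (edgeR adjusted p = 0.0361) and had a log2 fold change of -0.06 ± 0.37 in VGAT (edgeR adjusted p = 0.881), at means of 0.433 to 0.956 cpm in these groups. The X-linked Rps4x rose by 0.53 ± 0.20 (edgeR adjusted p = 0.0288) and 0.47 ± 0.14 (edgeR adjusted p = 0.00469). Rpl41, the shortest of the proteins, had a log2 fold change of -0.30 ± 0.25 and -0.06 ± 0.18 (edgeR adjusted p = 0.321 and 0.787), and Rpl39, another very short one, values of -0.28 ± 0.26 and -0.51 ± 0.25 (edgeR adjusted p = 0.380 and 0.0702). Blocked by pool, Rpl39 was lower in VGAT, at -0.54 (edgeR adjusted p = 0.0112). Rpl3l was at 1.21, 0.773, 0.383, 0.370 and 0.826 cpm in VGAT TRAP and was at 0 in 3 of 5 VGAT ST libraries. Rps27l had a log2 fold change of -0.35 ± 0.27 in RBP4 (edgeR adjusted p = 0.275) and fell by 0.66 ± 0.23 in VGAT (edgeR adjusted p = 0.0137).

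The direction of ST against TRAP went with the length of the coding sequence. The 11 members higher in both lines had 593 to 1257 bases annotated as coding (median 826), and the 15 lower ones 168 to 738 bases (median 468), with 9 of the 15 under 500 bases and 0 of the 11. Among members under 500 coding bases 0 of 44 were higher and 10 lower in RBP4 (median -0.28), and 3 higher and 17 lower in VGAT (median -0.26). Among longer members 13 of 36 were higher and 9 lower in RBP4 (median 0.16), and 13 of 37 higher and 7 lower in VGAT (median 0.21). Spearman's coefficient between the log2 fold change and the coding length was 0.33 over 80 members in RBP4 and 0.44 over 81 in VGAT, and 0.54 and 0.50 over the 55 members of at least 10 cpm. Over all other protein-coding genes Spearman's coefficient was 0.24 (14667 genes) and 0.30 (14594 genes), whose medians were -0.75 and 0.02 for genes under and over 500 coding bases in RBP4 and -0.90 and 0.13 in VGAT. The relation with length is thus present among genes outside the family. Of 1062 other protein-coding genes under 500 coding bases, 182 were higher and 559 lower in RBP4. In VGAT 217 of 1065 were higher and 641 lower. In both lines, short members were called in either direction for a smaller share than other short genes. These are correlations across genes that share libraries, and genes are not independent replicates. With the mean level of the member the coefficient of the log2 fold change was 0.59 in RBP4 and 0.49 in VGAT. In VGAT TRAP against WCH the coefficient with coding length had the opposite sign, -0.45 over members and -0.29 over other protein-coding genes.

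**Figure D5:**
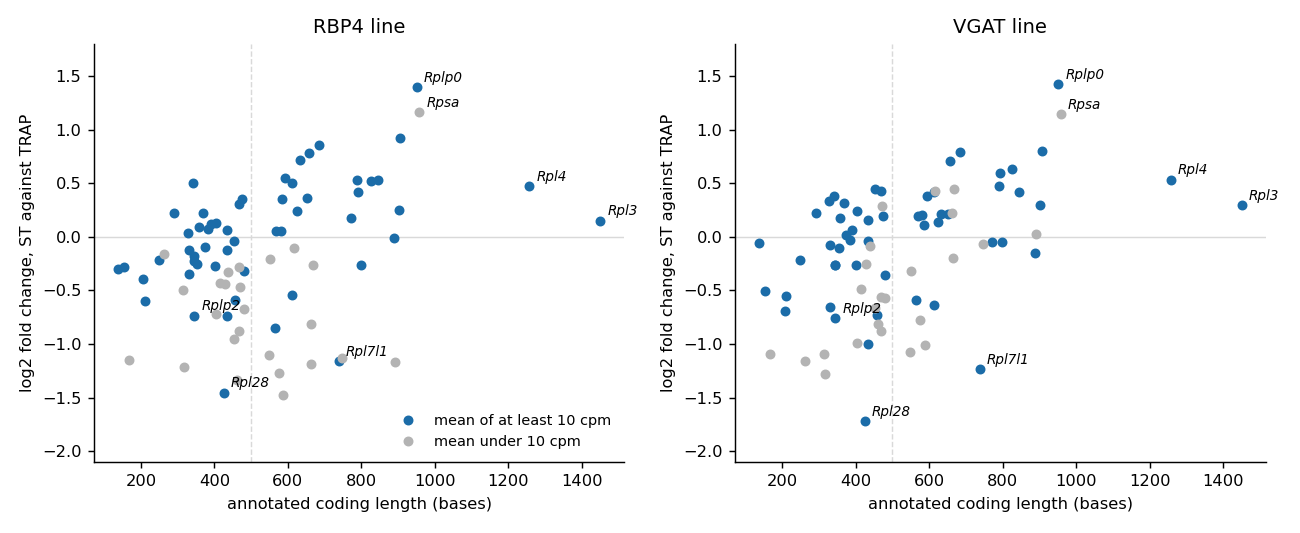
Log2 fold change of ST against TRAP (y axis) by annotated coding length in bases (x axis) in the RBP4 (left) and VGAT line (right); points are members, blue for a mean of at least 10 cpm and grey below it, and a dashed line marks 500 bases. Points under 500 bases lie mostly below 0, with medians of -0.28 and -0.26, and longer ones reach up to Rplp0 at 1.399 and 1.42; Rpl3l of the VGAT line lies outside the panel.

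Members with and without a pyrimidine run are given side by side, without a test of the difference. In RBP4 ST against TRAP, of 20 members with a run at the annotated start 2 were higher and 5 lower, and of 40 without one 9 were higher and 11 lower. The same comparison in VGAT had 2 higher and 7 lower of 20 with a run, and 9 higher and 11 lower of 41 without. Of the members shown above, Rpl28, Rplp2 and Rpl15 have the run and were lower in ST, Rpl7l1 has none and was lower, and Rps9 has the run and was higher. In VGAT TRAP against WCH 15 of 20 members with the run were higher and 24 of 41 without it.

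RNA of cells that do not carry the tag moved with these comparisons. In ST against TRAP all 6 astrocyte, 6 oligodendrocyte, 6 microglia and 5 endothelial markers were higher in both lines. The summed oligodendrocyte markers were at 388 to 5508 cpm in RBP4 TRAP and 31796 to 44757 in RBP4 ST, and at 433 to 2413 and 32577 to 54690 in VGAT. Astrocyte markers summed to 366 to 1615 and 3740 to 20050 cpm in RBP4 and 162 to 1008 and 4751 to 17667 in VGAT. In VGAT ST against TRAP the 5 GABAergic markers were all lower, and in RBP4 ST against TRAP 4 of them were higher. In TRAP against WCH the glial lists went down, with 5 of 6 astrocyte, 5 of 6 oligodendrocyte and 6 of 6 microglia markers lower in RBP4 and 6 of 6 of each in VGAT. In SNF against WCH 5 of 6 astrocyte, 4 of 6 oligodendrocyte and 5 of 6 microglia markers were higher in RBP4 (medians 1.29, 0.99 and 1.45) and 6, 5 and 6 of 6 in VGAT (medians 1.46, 1.10 and 1.52), with 0 lower, and of the 5 endothelial markers 0 and 2 were higher. In ST against SNF of RBP4 3 oligodendrocyte and 2 endothelial markers were higher and 0 lower, and of astrocyte and microglia markers 0 were called. For VGAT that comparison had 3 oligodendrocyte markers higher and 1 lower, 1 astrocyte marker higher and 1 lower, 2 microglia markers lower and 2 endothelial ones higher. Summed oligodendrocyte markers were at 12186 to 18772 cpm in RBP4 SNF and 14880 to 18033 in VGAT SNF, below all ST libraries. In RBP4 ST against SNF 0 of 4 layer 5 and glutamatergic markers were called, and 2 of 5 GABAergic ones were lower. In VGAT 1 of 4 and 2 of 5 were higher, and 0 lower. In ST of RBP4 against VGAT 0 of the 4 were called, and 1 GABAergic marker was lower. No marker was at 0 in all libraries of a group, and Tek and Kdr, of endothelial cells, were at 0 in some TRAP libraries. The part of glial RNA in the values of the ribosomal protein genes was not tested.

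Between the lines, calls at the adjusted threshold were no more frequent among members than among all genes in TRAP. By the unadjusted threshold, by groups that do not overlap and by the median, members were lower in RBP4 more than all genes were. In TRAP of RBP4 against VGAT 0 of 81 members were higher with edgeR, also at an unadjusted p under 0.05 and with TMM and DESeq2, and 9 were lower, against 12.9% and 15.1% of all 16898 genes. The median was -0.34 over members and -0.01 over all genes, and 25 members were lower at an unadjusted p under 0.05, against 20.5% of all genes, and 18.1% of all genes were higher. Among the 9 were Rpl3, Rpl8, Rpl13a, Rpl31, Rpl36a, Rpl37, Rps9 and Rps26. All RBP4 libraries lay below all VGAT libraries for 17 of 81 members, 6 of them among the 9, and for 13.2% of all genes. Of the marker lists in this comparison, microglia had 5 of 6 lower (median -1.49), astrocytes 1 higher and 0 lower, oligodendrocytes 0 called and endothelial cells 1 higher and 0 lower, and the part of such RNA in the members' values was not tested. With TMM 3 members were lower, as without VGAT pool 4. Without RBP4 pool 4 and VGAT pools 1, 3 and 5 there were 4, 4, 4 and 5. With the pool as a block the call of Rpl8 was lost, at a log2 fold change of -0.47, and 4 members not called before were lower. In ST 1 member was lower, against 0.266% of all genes, and 23 at an unadjusted p under 0.05, against 8.52%. Of higher members there were 0 at either threshold with edgeR and 0 with TMM and DESeq2, against 0.0592% and 2.95% of all genes. In WCH 0 members were called with edgeR, TMM and DESeq2, against 0.00592% of all genes in either direction, with 0 members higher and 2 lower at an unadjusted p under 0.05, against 1.46% and 1.07%. In SNF 0 were called with these tools, against 0.00564% higher and 0.0113% lower, with 1 member higher and 0 lower at an unadjusted p under 0.05, against 2.75% and 1.86%.

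Rpl3, a core protein at the catalytic centre of the large subunit, was the member that differed in both captures. It lies at chr15:80077794-80091868 on the minus strand. Its level was 29.8, 44.8, 39.3, 22.9 and 34.3 cpm in RBP4 TRAP and 47.9, 53.4, 58.7, 61.7 and 53.8 cpm in VGAT TRAP. In ST it was 43.3, 35.5, 32.4, 33.6 and 44.9 cpm in RBP4 and 56.8, 72.8, 56.8, 89.5 and 62.5 cpm in VGAT. RBP4 lay below VGAT in all libraries of both fractions. The log2 fold change was -0.69 ± 0.16 in TRAP (edgeR adjusted p = 0.00109) and -0.84 ± 0.16 in ST (edgeR adjusted p = 0.00832). The ST call was lost without pool 4 or pool 5 of the VGAT line. In WCH the groups did not overlap either, with 40.4 ± 5.6 cpm in RBP4 and 53.3 ± 4.9 in VGAT (SD, n = 5), and the change was -0.40 ± 0.16 (edgeR adjusted p = 0.99989). Rps9, a small subunit protein at the mRNA entry, fell by 0.58 ± 0.15 in TRAP (edgeR adjusted p = 0.00425).

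The study looked for local translation candidates, taken here as genes with an unadjusted p under 0.05 for higher ST in ST against SNF and for higher SNF in SNF against WCH. For RBP4 71 genes met this, 0.417% of those tested, among them 2 members (Rpl13a and Rpl18). In the VGAT line 220 did, 1.29%, with 7 members (among them Rpl13a, Rplp0, Rplp1, Rps9, Rps15 and Rps19). Somatic candidates, a name that stands for depletion in SNF and not for dissected cell bodies, and which passed for higher TRAP against WCH together with lower SNF against WCH, were 1013 genes (5.94%) in RBP4, with the 3 members Rpl15, Rpl27a and Rpl7l1. In VGAT they were 2236 genes (13.2%), with 8 members, namely Rpl7l1, Rpl11, Rpl15, Rpl17, Rpl19, Rpl27a, Rpl28 and Rpl36a. With TMM 6 and 22 members were local candidates and 0 and 3 were somatic ones. With the pool as a block 5 members were somatic candidates in RBP4, and leaving out single pools gave 0 to 1 local and 1 to 6 somatic ones there and 2 to 8 and 5 to 11 in VGAT.

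Other genes of the pathway were taken from fixed lists. Of 4 ribosomal proteins with other names, Rack1, a scaffold on the small subunit, rose in ST against TRAP by 0.80 ± 0.20 in RBP4 (edgeR adjusted p = 0.00182) and 0.93 ± 0.13 in VGAT (edgeR adjusted p = 2.14e-06), and Rpl36al fell by 1.15 ± 0.23 and 1.33 ± 0.15 (edgeR adjusted p = 1.87e-04 and 6.24e-08). Among 15 other mRNAs known to carry a TOP, 6 were higher and 3 lower in RBP4, and 6 higher and 5 lower in VGAT. Of all genes 26.0% were higher and 29.1% lower in RBP4 ST against TRAP, and 37.5% and 34.0% in VGAT. Pabpc1, the cytoplasmic poly(A) binding protein, rose by 1.38 ± 0.22 and 1.60 ± 0.15 (edgeR adjusted p = 2.27e-05 and 4.24e-09), and Eef2, the elongation factor of translocation, by 1.39 ± 0.27 and 1.25 ± 0.17 (edgeR adjusted p = 1.44e-04 and 1.13e-06). Tpt1, the translationally controlled tumor protein, fell by 0.86 ± 0.26 and 0.58 ± 0.20 (edgeR adjusted p = 0.00669 and 0.0134). In ST against SNF 4 of these 15 were higher in RBP4 and 11 in VGAT, and 0 lower. The shares of all genes there were 5.64% and 16.3% higher and 5.46% and 11.2% lower. Of 9 tested regulators of TOP mRNAs, 3 were higher and 4 lower in RBP4 ST against TRAP and 4 higher and 2 lower in VGAT, with Larp1 higher by 0.57 ± 0.19 and 0.37 ± 0.15 (edgeR adjusted p = 0.0129 and 0.0261). In TRAP against WCH 0 were higher and 5 lower in RBP4, and 1 higher and 7 lower in VGAT. Of all genes 8.37% were higher and 31.5% lower there in RBP4, and 21.0% and 41.8% in VGAT.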

How the data were processed

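Counts of 40 libraries (2 lines, 4 fractions, 5 replicates each) were used, grouped by line, fraction and replicate number from the labels. Replicates are pools of forebrains. Same-numbered libraries of a line come from 1 pool. ST and SNF deviated together in 5 of 5 pools in both lines (correlations over 0.1), ST and TRAP in 1 and 2 of 5. TRAP and WCH did so in 4 and 5 of 5, and SNF and WCH in 4 of 5 in both. Same-numbered libraries of the 2 lines, from different pools, did so in 3 of 5 in WCH, SNF and ST and in 2 of 5 in TRAP. The cause was not tested. The authors used STAR 2.0.4b for alignment and, for each gene, counted the reads with a unique alignment using Subread featureCounts 1.4.5 (Ensembl release not given in the sources used here). The deposited counts are raw and per gene, and the deposited CPM and RPKM values, made by the authors from these counts with all genes in the total, served only as a check.

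Members and gene lists were chosen with earlier results of these data known. Symbols came from GENCODE M21, with coordinates on GRCm38 as in the deposited files. Mitochondrial, rRNA and tRNA genes (390) were left out, and library sizes were the remaining totals. Genes that reached 0.5 cpm in 3 or more libraries were tested with edgeR 4.0.16 in R 4.3.3 (quasi-likelihood, Benjamini-Hochberg over all genes tested), with 20 libraries within a line, 30 between lines (WCH, TRAP, ST), and 40 for SNF between lines. Members named are the reporter's Rpl10a, related pairs, stalk proteins, Rpsa, Rps27a, Rps6 and Rpl41, the highest and lowest 3 per length, and in each comparison up to 2 per direction with the smallest p whose groups do not overlap. Names outside this rule were chosen after values were seen. Some members are counted but their own values are not reported here. The VGAT TRAP against WCH test was checked on simulated counts with changed genes. Alternatives were TMM, DESeq2 1.42.0, the likelihood ratio test, no genes left out, no filter, all 40 libraries, the replicate block, each pool left out, and the library labelled RBP4 ST replicate 4 left out. Python 3.11.15 with pandas 2.3.3 and matplotlib 3.10.9 did the rest. Precision follows from the depth. The SEs of log2 fold changes come from fits without the replicate block. They were computed as the absolute log2 fold change divided by the square root of the F statistic of its quasi-likelihood test. They include counting error and do not use the pairing of libraries by pool.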

Additional observations from a re-analysis of the deposited data

Results flagged for a closer look

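Among 8 printed genes, the summed level and the ratio of subunits, each in 8 groups of 5 libraries (80 groups), 7 groups had a library at an end far from the other 4, by Dixon's test, where chance flags about 1 in 20. Rpl28 was at 30.3 cpm in RBP4 WCH replicate 5, against 18.8 to 21.4 in the other 4, and at 25.04 cpm in RBP4 SNF replicate 5, against 13.5 to 16.8. In the same SNF library Rpl10a was at 2.53 cpm, against 0.976 to 1.27. The summed level of the members was 6292 cpm in VGAT WCH replicate 1, against 4738 to 5149. The ratio of the large to the small subunit sum was 1.46 in VGAT WCH replicate 5, against 1.38 to 1.39. Rpsa was at 4.395 cpm in VGAT WCH replicate 2, the lowest of that group, against 4.84 to 5.01. Rplp2 was at 133 cpm in VGAT SNF replicate 3, against 79.8 to 94.7, in a library with a mitochondrial share of 41.9%. The cause of these values was not tested.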

How the results depend on the processing

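With TMM the members higher and lower were 25 and 2 in RBP4 TRAP against WCH, 21 and 4 in RBP4 SNF against WCH, 33 and 4 in VGAT SNF against WCH and 21 and 1 in VGAT ST against SNF. With DESeq2 they were 29 and 2, 32 and 4, 46 and 0, and 22 and 1. With no genes left out 11 were higher in RBP4 TRAP against WCH, 0 higher and 20 lower in RBP4 SNF against WCH, 0 and 32 in VGAT SNF against WCH, 12 and 1 in RBP4 ST against SNF, 57 higher in VGAT ST against SNF and 6 higher in RBP4 ST against TRAP. With no filter 3 were higher in RBP4 TRAP against WCH, 2 higher in RBP4 SNF against WCH, 10 lower in VGAT SNF against WCH, 1 lower in RBP4 ST against SNF, 7 higher in RBP4 ST against TRAP and 3 lower in TRAP of RBP4 against VGAT, where TMM also gave 3. With all 40 libraries in the fit 4 were lower in RBP4 TRAP against WCH, 9 higher in RBP4 SNF against WCH, 3 higher in VGAT SNF against WCH, 8 higher in RBP4 ST against SNF, and 6 were RBP4 somatic candidates. Local candidates of RBP4 were 6 with TMM, 7 with DESeq2, 0 with no genes left out and 1 with no filter, and those of VGAT 22, 21 and 0 with the first 3. Somatic candidates of RBP4 were 0 with TMM and DESeq2 and 8 with no genes left out, and those of VGAT 3, 1 and 24. The mean sum over members moved to 4709 cpm in RBP4 SNF and 4360 in VGAT SNF with no genes left out, and to 4363 in VGAT WCH with TMM. With the replicate block, the pool as a term within a line, 4 members were lower in RBP4 TRAP against WCH, 8 higher in RBP4 ST against SNF and 5 were RBP4 somatic candidates. In direct comparisons between lines the term was the replicate number, which joins different pools of the lines. Over all members and comparisons the block kept 222 calls, gained 32 and lost 3: Rps27 in VGAT SNF against WCH (-1.13), Rps13 in VGAT ST against TRAP (-0.78) and Rpl8 in TRAP of RBP4 against VGAT (-0.47). Without the library labelled RBP4 ST replicate 4, 2 members were higher and 0 lower in RBP4 ST against SNF, 8 higher in RBP4 ST against TRAP, and 1 was a local candidate.

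Leaving out each pool in turn gave 3 to 7 higher and 2 to 4 lower members in RBP4 TRAP against WCH (fewest higher without pools 2 and 3), 0 to 5 and 7 to 15 in RBP4 SNF against WCH (0 without pool 3, 7 without pool 1), 0 to 3 and 1 to 2 in RBP4 ST against SNF (0 without pools 1 and 4), and 5 to 15 and 11 to 22 in RBP4 ST against TRAP (5 without pool 4, 11 without pool 2). In VGAT it gave 40 to 48 higher and 4 to 4 lower in TRAP against WCH, 0 to 10 and 10 to 15 in SNF against WCH (0 without pool 3, 10 lower without pools 1 and 4), 21 to 41 and 0 to 1 in ST against SNF (21 without pool 2), and 11 to 15 and 18 to 25 in ST against TRAP. Lower members in TRAP of RBP4 against VGAT were 3 to 13 (3 without VGAT pool 4) and in ST 0 to 1 (0 without VGAT pools 4 and 5). Local candidates were 0 to 1 in RBP4 and 2 to 8 in VGAT, and somatic ones 1 to 6 and 5 to 11. Of 1234 alternative values of members named 190 lost the threshold and 0 changed sign. Rplp0, Rpsa, Rpl28 and Rpl7l1 in ST against TRAP and Rpl29, Rpl5 and Rpl9 in TRAP against WCH passed in both lines under every alternative run. For genes outside the family, the only values given here under an alternative are medians of all genes with TMM and their shifts. Where the cause of a change is not given by the setting itself, it was not tested. Members under 10 cpm rest on few counts, since 1 count is worth up to 0.112 cpm.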

Other observations

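The ribosomal proteins of mitochondria, a family with a like role in another compartment, gave other values than the cytoplasmic family in the same libraries. In TRAP against WCH, of 75 tested, 52 were higher and 0 lower for RBP4 and 71 and 0 for VGAT, with medians of 0.67 and 0.85. The shares of all genes there were 8.37% and 21.0% higher and 31.5% and 41.8% lower. In SNF against WCH 0 of this family were higher and 49 and 64 lower, and in ST against TRAP 0 were higher and 72 and 74 lower, with medians of -1.19 and -1.38. Of all genes 13.4% and 19.3% were higher and 36.1% and 45.2% lower in SNF against WCH. In ST against TRAP 26.0% and 37.5% of all genes were higher and 29.1% and 34.0% lower. The summed level of the mitochondrial family was 5626 ± 668 cpm in RBP4 TRAP and 2430 ± 613 in RBP4 ST, and 6849 ± 545 and 2574 ± 272 cpm in VGAT (SD, n = 5). In both lines all TRAP libraries lay above all ST libraries. Genes of ribosome biogenesis, which act in the nucleolus, were lower in ST than in TRAP for 11 of 17 in RBP4 and 13 of 17 in VGAT and higher for 0 in either line with edgeR (0 also at an unadjusted p under 0.05), and lower in SNF than in WCH for 10 and 15. Of all genes 29.1% and 34.0% were lower in ST than in TRAP, and 36.1% and 45.2% in SNF than in WCH.

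The pseudogene Rps4l, which the rule for members leaves out, had 10007 counts over the 40 libraries.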
